A study of Mus musculus with 18 samples.

Results

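The transcripts of 10 genes that carry glucose into the cell and through glycolysis to lactate were followed in immune cells sorted from mouse tumours. They are Slc2a1, Gpi1, Aldoa, Tpi1, Gapdh, Pgk1, Pgam1, Eno1, Pkm and Ldha, chosen by name, and each of the 10 matched 1 of the 46983 genes in the deposited tables. All 10 passed the filter on low values in every sort, and all 10 had reads in each of the 18 libraries.

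Tumours were grown from MC38, a mouse colon carcinoma line, under the skin of female C57BL/6 mice that were 6 weeks old at injection, and treatment began when tumours averaged 100 mm3. In the D18 plus anti-PD-1 group, mice received 25 µg of D18 once a week together with 200 µg of anti-PD-1 antibody given 2 times a week into the peritoneum. Mice of the anti-PD-1 group received the same antibody schedule alone, and both groups were treated for 2 weeks. D18 is known here only by its code name, anti-PD-1 blocks the inhibitory receptor PD-1, and both groups carry the antibody, so the comparison is of D18 on top of anti-PD-1, with no untreated group. From these tumours dendritic cells, CD4+ T helper cells and CD8+ T cells were sorted, and 3 Smart-Seq2 libraries were made for each sort and treatment. The labels do not say whether replicates came from separate mice, so p-values measure the spread between these libraries, which may be technical.

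Glycolysis splits glucose into pyruvate in the cytosol and yields ATP without oxygen, and lactate dehydrogenase turns pyruvate into lactate while restoring the NAD+ that the pathway uses. Activated T cells and activated dendritic cells are known to raise glucose uptake and glycolysis, and tumour cells compete with them for glucose. Several of these genes are textbook targets of the hypoxia-inducible factor HIF-1, which binds a core of the letters ACGTG or GCGTG, and of Myc, which binds CACGTG.

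In the 250 bases before a RefSeq transcription start (GRCm38.p6, the assembly also named mm10), 6 of the 10 genes (60%) had at least 1 ACGTG on either strand, against 18.5% of 27025 mouse genes. Genes with several listed starts have more windows. Counted by window, 7 of 16 (43.8%) held it, against 16.6% of 32851. The windows before the second and the last listed start of Aldoa overlap and hold the same match, which is counted for each. The 4 windows printed are those of Ldha and Pgk1, which hold more than 1 match, and those of Tpi1 and Gapdh, which hold none and whose shares of the glycolysis reads are described with the make-up of those reads. They lie at chr7:46845554-46845803 on the plus strand (Ldha, the first of its 2 listed starts), chrX:106186850-106187099 on the plus strand (Pgk1), chr6:124814159-124814408 on the minus strand (Tpi1) and chr6:125165774-125166023 on the minus strand (Gapdh). Each is written 5′ to 3′ on the strand of its gene, and capitals mark ACGTG or its reverse complement CACGT, which overlap where they form CACGTG.
Ldha: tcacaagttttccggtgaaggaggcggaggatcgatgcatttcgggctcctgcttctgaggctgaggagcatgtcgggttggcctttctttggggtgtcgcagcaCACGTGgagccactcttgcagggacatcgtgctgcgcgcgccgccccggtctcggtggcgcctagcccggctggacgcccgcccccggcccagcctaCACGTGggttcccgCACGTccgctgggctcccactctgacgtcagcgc
Pgk1: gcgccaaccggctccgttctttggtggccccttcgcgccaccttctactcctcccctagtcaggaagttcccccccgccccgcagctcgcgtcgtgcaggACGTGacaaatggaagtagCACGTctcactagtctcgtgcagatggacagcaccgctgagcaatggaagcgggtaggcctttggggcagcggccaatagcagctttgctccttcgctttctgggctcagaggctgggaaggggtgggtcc
Tpi1: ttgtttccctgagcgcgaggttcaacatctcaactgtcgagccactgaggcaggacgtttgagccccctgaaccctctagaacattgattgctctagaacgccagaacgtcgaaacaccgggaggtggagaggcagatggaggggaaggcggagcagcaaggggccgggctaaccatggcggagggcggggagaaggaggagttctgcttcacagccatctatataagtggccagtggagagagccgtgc
Gapdh: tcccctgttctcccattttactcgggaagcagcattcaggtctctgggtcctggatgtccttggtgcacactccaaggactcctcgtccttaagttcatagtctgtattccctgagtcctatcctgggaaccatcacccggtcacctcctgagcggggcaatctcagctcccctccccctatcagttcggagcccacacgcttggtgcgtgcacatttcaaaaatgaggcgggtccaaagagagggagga
Ldha held 5 matches, 4 of them in overlapping pairs that form CACGTG, and it was the only 1 of the 10 genes with CACGTG, which 6.86% of mouse genes had. Pgk1 held 2 matches, Slc2a1 and Pgam1 held 1 each, Aldoa held 1 before its second and its last listed start, and Pkm held 1 before its second. Gpi1, Tpi1, Gapdh and Eno1 had no ACGTG in these windows. The other core of HIF-1, GCGTG, was not searched for or marked. The printed Gapdh window and a window of Eno1 hold it, so the counts cover ACGTG alone and do not separate genes with a HIF-1 core from genes without. A match describes the letters of the window and is no measurement of binding.

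The libraries were shallow, with 11170 to 266392 recovered reads each, of which 2.39% to 71.9% were mitochondrial. Several stood apart from their labels. In the CD4+ T helper sort, anti-PD-1 replicates 1 and 2 had 0 and 1 reads of the T cell gene Cd3e, and D18 replicate 3 had 83 reads of Cd8a against 2 of Cd4. Replicate 3 of the dendritic cell sort in either treatment held 69 (D18) and 34 (anti-PD-1) Cd3e reads, whereas the other libraries of that sort had none. Of the 11 dendritic cell genes listed, Flt3, Xcr1, Clec9a and Cd209a were at 0 in all 3 anti-PD-1 libraries of that sort. The others were Zbtb46, Ccr7, Itgax, Batf3 and the antigen-presentation genes H2-Aa, H2-Ab1 and Cd74 that macrophages also express. Each of these had reads in at least 1 of the 3. The 11 genes summed in the dendritic cell sort to 9793, 3347 and 6452 CPM with D18, against 9973, 34903 and 7205 with anti-PD-1 alone. H2-Aa had 391, 11 and 289 reads with D18, against 151, 689 and 269. The results are therefore given by the sort named on the label and not as values of a pure cell type. The 5 genes listed for tumour and other epithelial cells (Epcam, Krt8, Krt18, Krt19, Cldn7) summed to 0 to 36 CPM in each library, computed here over nuclear reads, those of all genes outside the mitochondrial genome. The 11 T cell genes listed summed to 4460 to 6286 CPM in the D18 libraries of the CD4+ sort, against 99, 343 and 5591 with anti-PD-1 alone. The 10 macrophage and monocyte genes summed to 1485, 3203 and 29648 CPM in the 3 D18 libraries of the CD8+ sort, against 30430, 24965 and 47043 with anti-PD-1 alone. In the CD4+ sort they summed to 9019, 26035 and 29669 with D18, against 68232, 71967 and 22398, and in the dendritic cell sort to 40454, 14121 and 30195 with D18, against 42701, 62630 and 42784. The part of these other cells in the results that follow was not tested. Anti-PD-1 replicates 1 and 2 of every sort also lacked any read of the mitochondrial genes mt-Atp6, mt-Co2 and mt-Co3, where each of the other 12 libraries had at least 1 of each. The labels name no batch for this split, and all 6 libraries are of 1 treatment, so the split and the treatment cannot be fully told apart. Estimates from a model with a term for these libraries are given for Tpi1, Gapdh, Pgk1 and Ldha. That term leaves replicate 3 as the only anti-PD-1 library set against D18 in each sort.

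Across the 10 genes, D18 gave no change that passed the test in any sort. In the CD8+ sort, 8 of the 10 were lower with D18 and 2 were higher, with a median log2 difference of -0.13, against -0.03 over all 1569 genes tested, of which 51.7% were lower and 48.3% higher. In the CD4+ sort all 10 were higher, with a median of 0.84 against 0.03 over 966 genes, of which 51.6% were higher and 48.4% lower. In the dendritic cell sort all 10 were lower, with a median of -0.88 against -0.65 over 886 genes, of which 69.1% were lower and 30.9% higher. Here a difference is D18 plus anti-PD-1 minus anti-PD-1 on the log2(normalised reads + 1) scale, tested with limma where a gene averaged 10 normalised reads or more, and called at an adjusted p under 0.05 over all genes of a sort. Called genes made up 0% of those tested in the CD8+ sort, 0% in the CD4+ sort and 0% in the dendritic cell sort, and an unadjusted p under 0.05 was reached by 130 (8.29%), 100 (10.4%) and 61 (6.88%) genes, of which 0, 1 and 0 belong to the 10. limma-voom also called 0 genes in each sort. All libraries of 1 treatment lay above all of the other for 1 of the 10 in the CD8+ sort (Tpi1, D18 lower), 2 in the CD4+ sort (Pgk1 and Pgam1, D18 higher) and 3 in the dendritic cell sort (Gpi1, Tpi1 and Ldha, D18 lower). Of all genes tested, 6.88% lay apart with D18 higher and 7.65% with D18 lower in the CD8+ sort, 5.28% and 9.21% in the CD4+ sort, and 4.18% and 19.9% in the dendritic cell sort. With replicate numbers as a block, 20 genes were called in the CD8+ sort, none of them among the 10.

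Libraries of the same number deviated together in the CD8+ sort, so the pairs are given there. With D18, 4 of the 10 (Gpi1, Tpi1, Pkm and Ldha) were lower in all 3 pairs and 0 were higher in all 3, against 23.9% and 21.6% of all genes tested. With the block, limma gave unadjusted p of 0.0058 for Tpi1, 0.022 for Gpi1 and 0.026 for Pkm (adjusted p 0.128, 0.197 and 0.204), and 316 genes (20.1%) were under 0.05 while 1.27% were called.

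In the CD8+ sort the split of 2 higher and 8 lower became 0 and 10 without anti-PD-1 replicate 1, with a median of -0.55, and 5 and 5 without anti-PD-1 replicate 2, with a median of -0.01. The term for the libraries that lack mt-Co2 reads gave a median of -0.45 there. All genes had medians of -0.08, -0.05 and -0.10 in these 3 fits. The uniform direction in the CD4+ sort leaned on 1 library, and much of the size in the dendritic cell sort on another. Without anti-PD-1 replicate 2 of the CD4+ sort, 6 of the 10 were higher and 4 lower. Their median was 0.25, with all genes at -0.08. Without D18 replicate 2 of the dendritic cell sort, the shallowest library, 4 were higher and 6 lower, and their median was -0.22, with all genes at 0.06. Without anti-PD-1 replicates 1 and 2 of the CD4+ sort, the pair nearly free of Cd3e, 7 were higher and 3 lower. The median was then 0.13, with all genes at -0.19. Omission of both libraries numbered 3 left 10 of 10 higher in the CD4+ sort (median 1.38, all genes -0.005). In the dendritic cell sort it left 9 of 10 lower (median -1.34), with all genes at -0.94 and 72.1% of them lower.

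**Figure D1:**
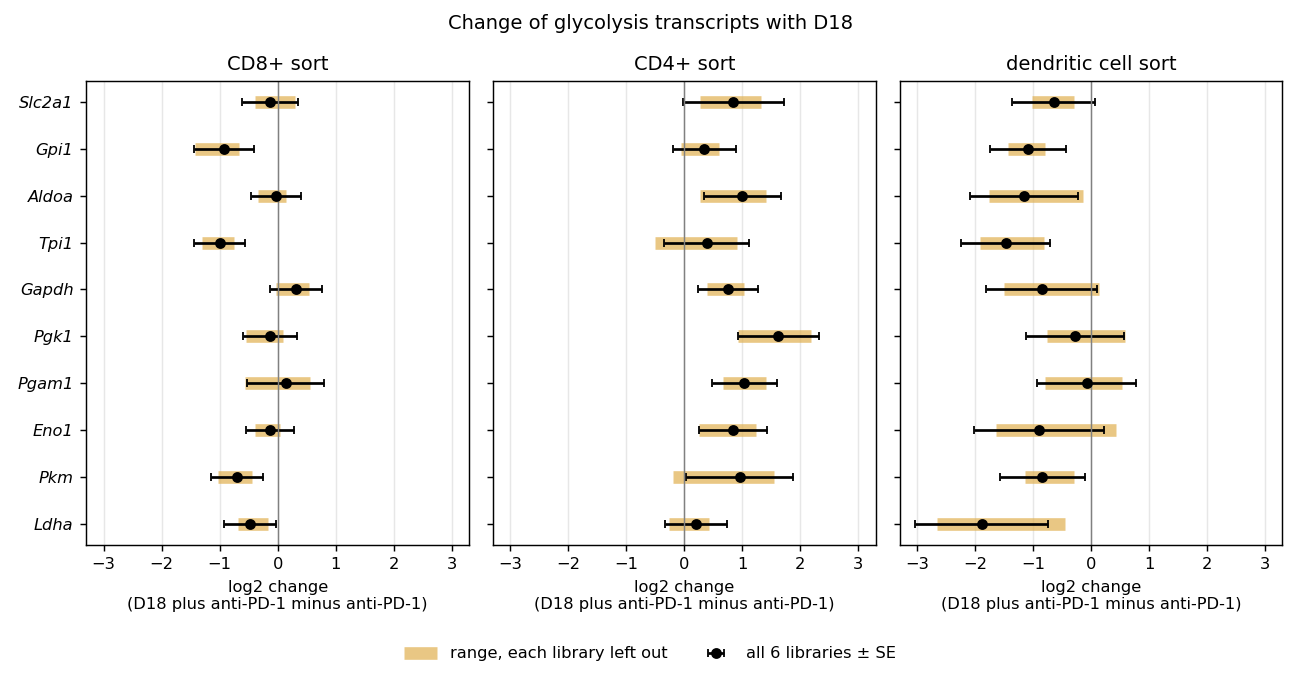
Log2 difference (D18 plus anti-PD-1 minus anti-PD-1, x axis) of each glycolysis gene in the 3 sorts, with points and bars for the estimate and its SE over 6 libraries and a wide band for the range when each library is left out in turn. All 10 points lie above 0 in the CD4+ sort and below 0 in the dendritic cell sort, and the bands of Tpi1, Pkm, Ldha and Gpi1 in the CD4+ sort and of Gapdh, Pgk1, Pgam1 and Eno1 in the dendritic cell sort cross 0.

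The summed reads showed the same libraries apart. The 10 genes together took 1.28%, 2.07% and 1.29% of nuclear reads in the D18 libraries of the CD8+ sort, against 1.38%, 2.20% and 1.80% with anti-PD-1 alone. In the CD4+ sort they took 1.33%, 2.16% and 1.46% with D18, against 1.37%, 0.48% and 1.59%. In the dendritic cell sort they took 1.19%, 0.32% and 1.57% with D18, against 1.47%, 1.53% and 1.75%. The low value of CD4+ anti-PD-1 replicate 2 rested on 224 reads and had an exact 95% binomial interval of 0.42% to 0.55%, in a library with 67.7% mitochondrial reads. That of dendritic cell D18 replicate 2 rested on 31 reads of 9560, with an interval of 0.22% to 0.46%. Every other library fell between 1.19% and 2.20%, and apart from these 2 libraries the treatments overlapped in each sort. Reads without molecular identifiers are not independent molecules, so the intervals cover counting error only. In bulk libraries fewer cells of a type and less RNA per cell cannot be told apart.

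**Figure D2:**
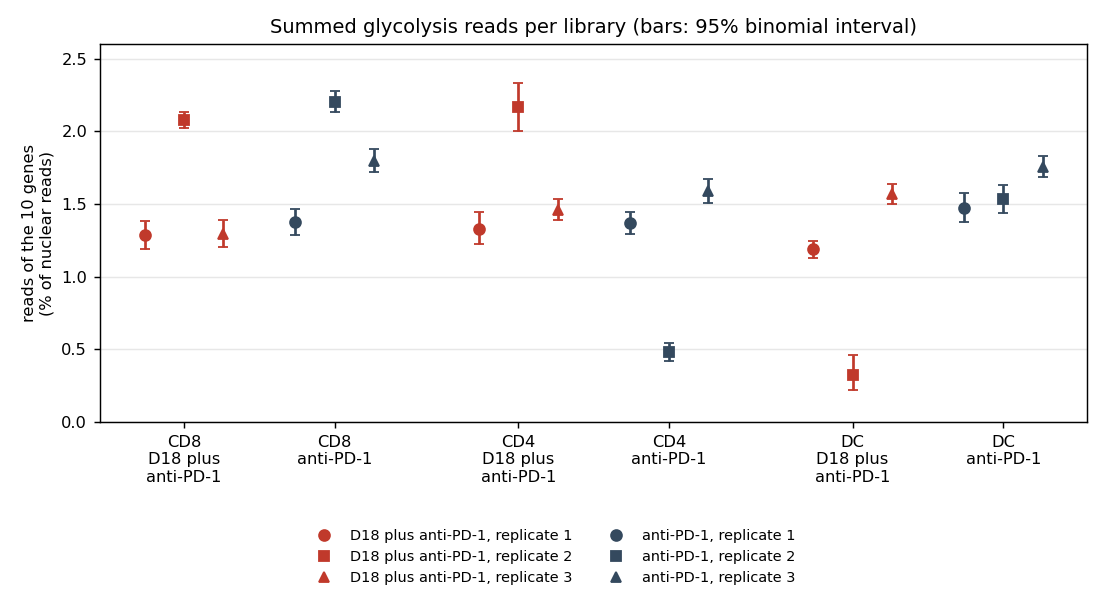
Summed reads of the 10 glycolysis genes as a percentage of nuclear reads (y axis), 1 point per library with an exact 95% binomial interval, by sort and treatment. CD4+ anti-PD-1 replicate 2 (0.48%) and dendritic cell D18 replicate 2 (0.32%) lie under all others, which span 1.19% to 2.20%.

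Per kilobase of transcript, Gapdh was the most abundant of the 10 in 17 of 18 libraries, at 2320 ± 824 RPKM (SD over 18 libraries), computed here over nuclear reads. Next came Aldoa at 1336 ± 555, Ldha at 1246 ± 514 and Eno1 at 1184 ± 457, then Tpi1 at 817 ± 351 and Pkm at 796 ± 325. Pgk1 at 225 ± 105 and Gpi1 at 209 ± 83.0 followed, then Pgam1 at 128 ± 61.4, and the transporter Slc2a1 was lowest at 55.0 ± 28.0. Of neighbours in this order, Gapdh and Aldoa, Pkm and Pgk1, and Pgam1 and Slc2a1 were farther apart than the SD of either, and the others were not. Slc2a1, Pgk1 and Pgam1 were among the bottom 4 in 18 of 18 libraries. The order was close to the same in all sorts: Gapdh had a median of 2896 in the CD8+ sort, 2095 in the CD4+ sort and 2136 in the dendritic cell sort, and Slc2a1 had medians of 55.9, 48.5 and 50.6. The tables of the sorts were normalised separately, so levels were not tested between them.

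**Figure D3:**
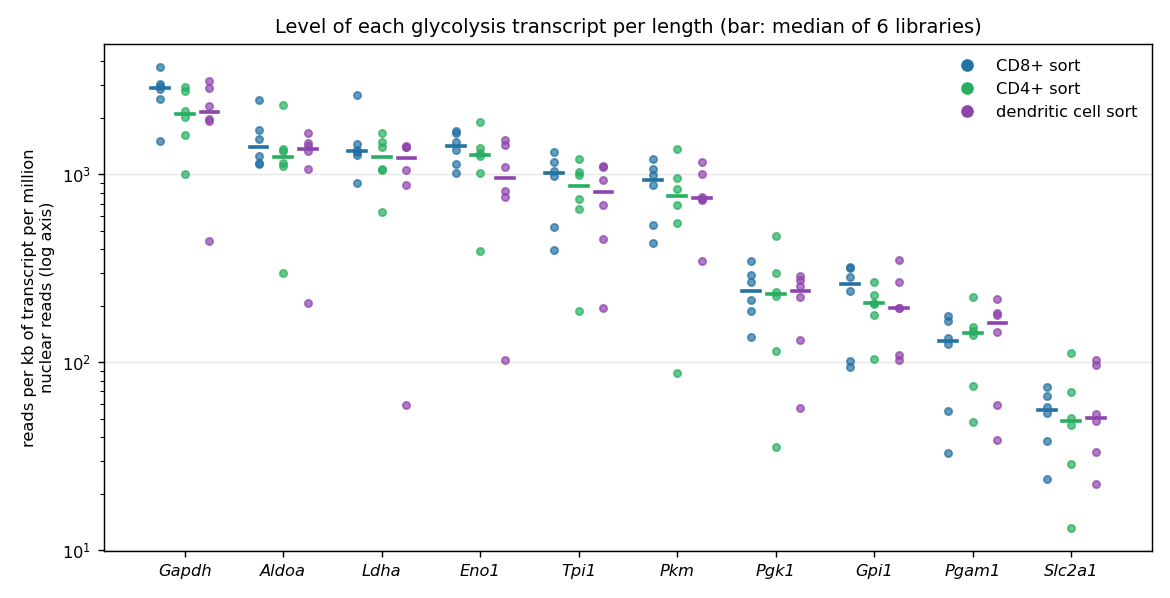
Level of each glycolysis transcript in RPKM over nuclear reads (log y axis), 1 point per library, with bars for the median of 6 libraries of a sort. Gapdh stands highest and Slc2a1 lowest in each sort, with gaps between sorts smaller than the spread of the libraries within them.

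Glucose enters through Slc2a1 (GLUT1; chr4:119108711-119137983, plus strand), a transporter of the plasma membrane. The CD8+ sort held 7.48, 20.9 and 18.5 normalised reads with D18, against 16.2, 19.4 and 12.5 with anti-PD-1 alone. The CD4+ sort gave 14.1, 20.6 and 5.77 with D18, against 10.5, 2.31 and 9.09. The dendritic cell sort gave 7.60, 14.4 and 4.78 with D18, against 10.6, 22.2 and 9.94. The treatments overlapped in every sort, and the log2 differences were -0.13 ± 0.49, 0.84 ± 0.87 and -0.65 ± 0.71 (SE; limma adjusted p 0.941, 0.753 and 0.680). The CD4+ value was 0.28 without anti-PD-1 replicate 2, and that of the dendritic cell sort -0.30 without anti-PD-1 replicate 2. Each library held 2 to 61 reads of Slc2a1.

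Gpi1, the isomerase that turns glucose phosphate into fructose phosphate (chr7:34201330-34230336, minus strand), had 28.0, 79.7 and 26.9 normalised reads in the D18 libraries of the CD8+ sort, against 63.4, 82.1 and 82.6 with anti-PD-1 alone. D18 replicates 1 and 3 lay below all anti-PD-1 libraries and replicate 2 lay among them. The difference was -0.92 ± 0.52 (limma adjusted p 0.671), and -1.42 without D18 replicate 2. In each of the 3 same-numbered pairs the D18 library was lower. The CD4+ sort held 48.0, 33.8 and 31.7 with D18, against 41.9, 16.2 and 35.7, a difference of 0.35 ± 0.55 that became -0.06 without anti-PD-1 replicate 2. The dendritic cell sort held 20.6, 14.4 and 36.8 with D18, against 62.5, 36.9 and 48.8. There every D18 library lay below every anti-PD-1 library, the nearest pair at 36.8 and 36.9, and the difference was -1.08 ± 0.66 (limma adjusted p 0.551).

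Aldoa, the aldolase that splits fructose bisphosphate into triose phosphates (chr7:126795234-126800751, minus strand), had 164, 324 and 172 normalised reads with D18 in the CD8+ sort, against 216, 233 and 191 with anti-PD-1 alone. The estimate was -0.02 ± 0.43 and the groups overlapped. The CD4+ sort held 104, 201 and 128 with D18, against 110, 24.3 and 122, and the dendritic cell sort held 112, 14.4 and 145 with D18, against 131, 166 and 126. The 2 libraries with low totals held the lowest value in each of these sorts. The differences of 1.00 ± 0.66 and -1.15 ± 0.93 were 0.26 and -0.13 when those libraries were left out.

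Tpi1 interconverts the triose phosphates that aldolase makes (chr6:124810586-124814296, minus strand), and it had the smallest p of the 10 in the CD8+ sort. Its normalised reads there were 80.4, 136 and 62.3 with D18, against 154, 191 and 189 with anti-PD-1 alone. Every D18 library was below every anti-PD-1 library. The log2 difference was -1.0 ± 0.44, with an unadjusted limma p of 0.052 and an adjusted p of 0.612, and it ranged from -1.31 to -0.75 when each library was left out. With the replicate block the adjusted p was 0.128, and with a term for the libraries that lack mt-Co2 reads the difference was -1.10.

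Tpi1 in the dendritic cell sort had 51.0, 14.4 and 71.7 normalised reads with D18, against 92.1, 118 and 111 with anti-PD-1 alone. These groups did not overlap either. The difference of -1.47 ± 0.76 (limma adjusted p 0.551) was -0.81 without D18 replicate 2. The CD4+ sort held 73.4, 93.8 and 64.6 with D18, against 123, 16.2 and 96.8. D18 lay below 2 of the 3 anti-PD-1 libraries and above the remaining one, so the difference of 0.38 ± 0.73 became -0.51 without anti-PD-1 replicate 2.

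Gapdh, which oxidises triose phosphate and makes NADH (chr6:125161715-125166467, minus strand), had 387, 456 and 354 normalised reads with D18 in the CD8+ sort, against 197, 376 and 434 with anti-PD-1 alone. The groups overlapped, and the difference was 0.32 ± 0.45 (limma adjusted p 0.815). The CD4+ sort held 178, 235 and 244 with D18, against 145, 77.5 and 186, for a difference of 0.76 ± 0.52 that was 0.40 without anti-PD-1 replicate 2. The dendritic cell sort held 190, 28.9 and 290 with D18, against 172, 216 and 259, and the difference of -0.85 ± 0.95 was 0.14 without D18 replicate 2 and -0.44 with the reads of its near-identical copies added.

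Pgk1 makes ATP from the product of Gapdh (chrX:106187100-106203699, plus strand) and was the only 1 of the 10 with an unadjusted p under 0.05 in the limma test without a block, on log2 normalised reads, in the CD4+ sort. It had 33.9, 48.8 and 26.5 normalised reads there with D18, against 13.3, 3.47 and 24.7 with anti-PD-1 alone. All D18 libraries were above all anti-PD-1 libraries. The log2 difference was 1.62 ± 0.69 (limma p 0.041, adjusted p 0.453). It was 0.92 without anti-PD-1 replicate 2, and 0.50 in the model with a term for the libraries that lack mt-Co2 reads.

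In the CD8+ sort Pgk1 had 37.4, 42.1 and 33.7 normalised reads with D18, against 22.9, 56.6 and 53.8, and the dendritic cell sort held 36.9, 4.81 and 32.5 with D18, against 14.8, 30.6 and 25.6. The groups overlapped in both, with differences of -0.13 ± 0.46 and -0.28 ± 0.85. The second was 0.59 without D18 replicate 2, where Pgk1 had 1 read.

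Pgam1, the mutase that moves the phosphate of phosphoglycerate (chr19:41911923-41918660, plus strand), had 16.9, 22.5 and 16.2 normalised reads with D18 in the CD4+ sort, against 8.39, 4.62 and 14.9 with anti-PD-1 alone. All 3 D18 libraries were higher. The difference was 1.03 ± 0.55 (limma adjusted p 0.488), and 0.66 without anti-PD-1 replicate 2. The CD8+ sort gave 9.35, 25.3 and 21.9 with D18, against 5.39, 28.3 and 24.0. The dendritic cell sort gave 22.8, 4.81 and 16.7 with D18, against 4.24, 25.3 and 19.9. Both overlapped, and the differences were 0.14 ± 0.66 and -0.08 ± 0.85.

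Eno1, the enolase that forms phosphoenolpyruvate (chr4:150236721-150248879, plus strand), had 262, 259 and 226 normalised reads with D18 in the CD8+ sort, against 190, 310 and 339 with anti-PD-1 alone. The CD4+ sort gave 157, 220 and 162 with D18, against 131, 42.8 and 170. The dendritic cell sort held 155, 9.63 and 189 with D18, against 94.3, 109 and 195. All 3 pairs of groups overlapped, and the differences were -0.13 ± 0.41, 0.84 ± 0.59 and -0.90 ± 1.12. The second was 0.25 without anti-PD-1 replicate 2, and the last was 0.44 without D18 replicate 2, which held 2 Eno1 reads.

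Pkm encodes the pyruvate kinase that makes pyruvate and ATP (chr9:59656368-59679375, plus strand), and its PKM1 and PKM2 isoforms cannot be told apart in counts per gene. The CD8+ sort had 101, 225 and 128 normalised reads with D18, against 195, 264 and 242 with anti-PD-1 alone. D18 replicates 1 and 3 lay below all anti-PD-1 libraries, and the difference was -0.70 ± 0.45 (limma adjusted p 0.673), and -0.45 without D18 replicate 1. Each D18 library was lower than the anti-PD-1 library of its number. The CD4+ sort had 83.3, 188 and 104 with D18, against 129, 11.6 and 140, and the difference of 0.95 ± 0.92 was -0.19 without anti-PD-1 replicate 2. The dendritic cell sort had 125, 38.5 and 116 with D18, against 174, 122 and 153, for a difference of -0.84 ± 0.73 that was -0.30 without D18 replicate 2.

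Ldha, the lactate dehydrogenase subunit that favours lactate formation (chr7:46841475-46855627, plus strand), had the largest estimate of the 10 in the dendritic cell sort. It had 108, 4.81 and 122 normalised reads there with D18, against 151, 165 and 155 with anti-PD-1 alone. No D18 library reached an anti-PD-1 library, and the difference was -1.89 ± 1.15 (limma adjusted p 0.551). D18 replicate 2 contributed 1 read, and without it the difference was -0.45. With the term for libraries without mt-Co2 reads, which sets all D18 libraries against anti-PD-1 replicate 3 alone, the difference was -1.87. The CD8+ sort had 151, 220 and 229 with D18, against 205, 420 and 241, and the CD4+ sort 116, 167 and 117 with D18, against 157, 60.1 and 158. Those groups overlapped, with differences of -0.48 ± 0.45 and 0.20 ± 0.54, which were -0.18 and -0.26 without anti-PD-1 replicate 2 of the sort, and in the CD8+ sort D18 was lower in all 3 same-numbered pairs.

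**Figure D4:**
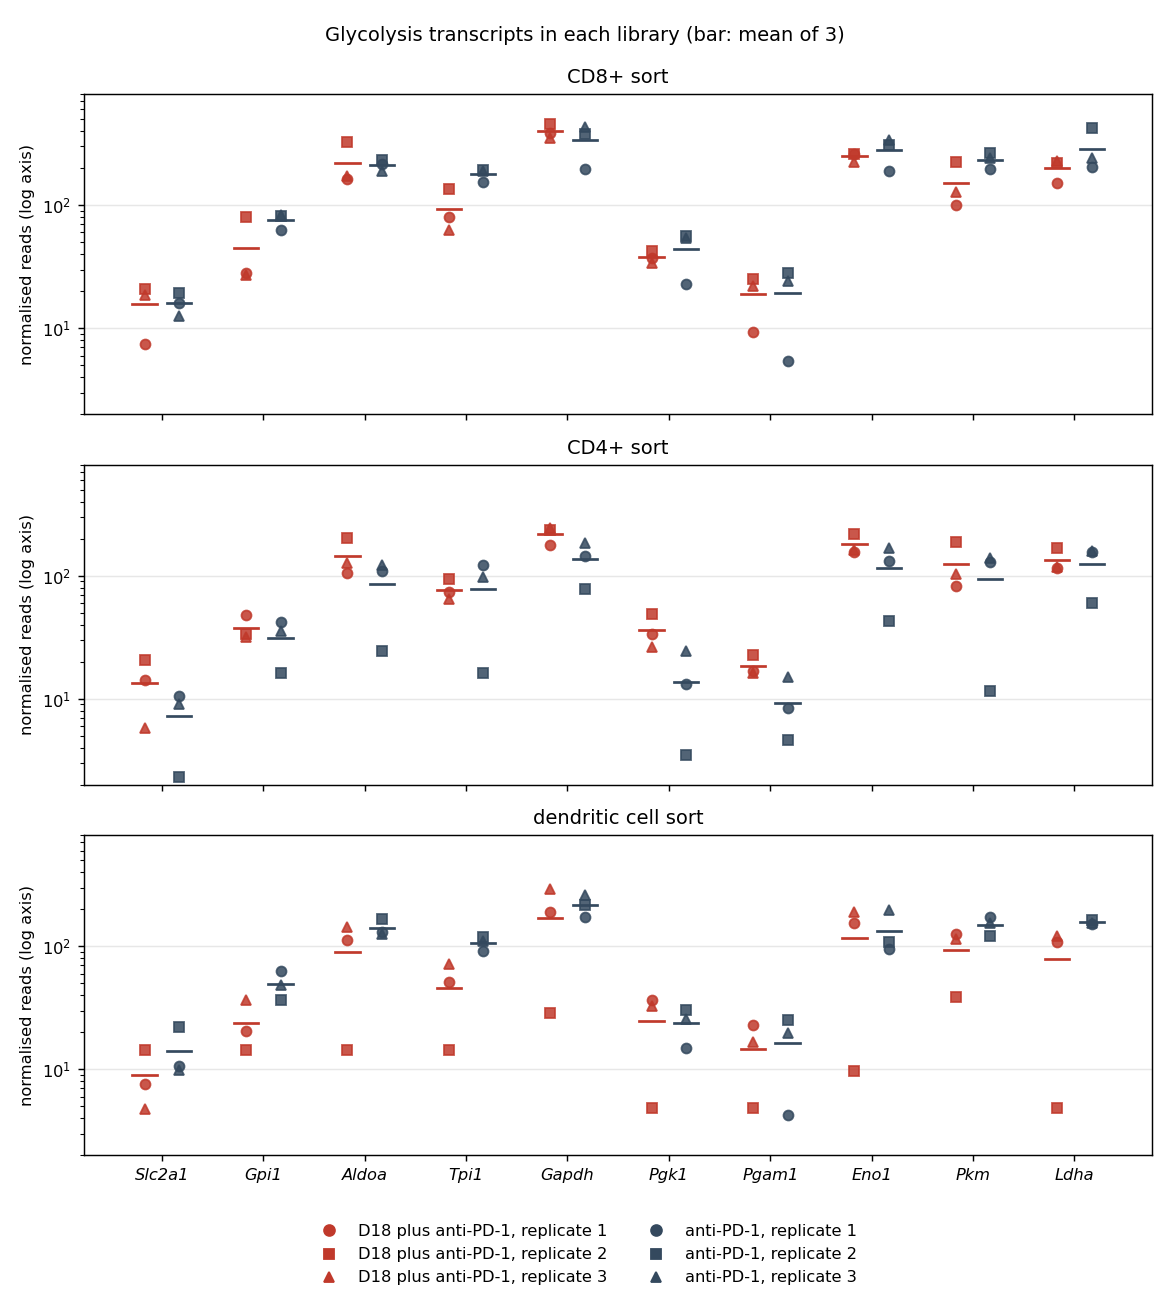
Normalised reads (log y axis) of the 10 glycolysis genes in the order of the pathway, 1 symbol per library and a bar for the mean of 3, with D18 plus anti-PD-1 left of anti-PD-1 in each pair. Tpi1 groups are apart in the CD8+ and dendritic cell sorts, Pgk1 and Pgam1 groups in the CD4+ sort, and squares mark replicate 2, which is lowest for most genes in CD4+ anti-PD-1 and dendritic cell D18 libraries.

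Whether the D18 differences themselves differed between sorts was tested with limma in 1 model of the 18 libraries, and 0% of 916, 0% of 816 and 0% of 744 genes were called for CD8+ minus CD4+, CD8+ minus dendritic cell and CD4+ minus dendritic cell sorts. At an unadjusted p under 0.05 there were 6, 7 and 22 genes, none of them among the 10. The differences of the 10 between the CD4+ and dendritic cell sorts ran from 1.11 ± 1.08 (Pgam1) to 2.15 ± 1.07 (Aldoa) on the log2 scale, with a smallest adjusted p of 0.750. Between the CD8+ and CD4+ sorts they ran from -1.75 ± 1.05 (Pgk1) to -0.44 ± 0.99 (Gapdh), and between the CD8+ and dendritic cell sorts from 0.14 ± 1.09 (Pkm) to 1.41 ± 1.21 (Ldha).

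The make-up of the glycolysis reads is free of the library totals, since each gene is divided by the sum of the 10. Tpi1 took 6.54%, 7.61% and 4.90% of these reads in the D18 libraries of the CD8+ sort, against 12.2%, 9.66% and 10.5% with anti-PD-1 alone. Its share in the dendritic cell sort was 6.14%, 9.68% and 7.01% with D18, against 10.2%, 11.7% and 10.0%, and the D18 value of 9.68% is 3 reads of 31. That in the CD4+ sort was 8.90%, 7.63% and 7.18% with D18, against 14.1%, 6.25% and 10.1%. All D18 libraries were thus below all anti-PD-1 libraries in 2 sorts, and in the other sort apart from anti-PD-1 replicate 2, where Tpi1 had 14 reads. In the CD8+ sort the only anti-PD-1 library with mt-Co2 reads, replicate 3, had 10.5%, above the 3 D18 libraries. This contrast was chosen after the values were seen and carries no test.

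Gapdh in the CD8+ sort took 31.5%, 25.5% and 27.8% of the reads with D18, against 15.6%, 19.0% and 24.0%. The 24.0% nearest to D18 is replicate 3, the only anti-PD-1 library of that sort with mt-Co2 reads. With the term for libraries that lack mt-Co2 reads, the log2 difference of Gapdh in normalised reads was -0.13 there, against 0.32 without the term. There were 20.8, 29.8 and 17.6 Tpi1 reads per 100 Gapdh reads with D18 in that sort, against 78.1, 50.9 and 43.6 with anti-PD-1 alone. Its share overlapped in the CD4+ sort, at 21.6%, 19.1% and 27.1% with D18 against 16.7%, 29.9% and 19.4%, and in the dendritic cell sort, at 22.9%, 19.4% and 28.3% against 18.9%, 21.4% and 23.4%. Ratios within a library show unequal values and not which of the pair moved.

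Pgk1 took 4.11%, 3.97% and 2.95% with D18 in the CD4+ sort, against 1.53%, 1.34% and 2.58%, whereas the dendritic cell sort gave 4.44%, 3.23% and 3.18%, against 1.64%, 3.03% and 2.31%. Ldha took 14%, 13.6% and 13.0% with D18 in the CD4+ sort, against 18%, 23.2% and 16.6%, whereas the dendritic cell sort gave 13.0%, 3.23% and 11.9%, against 16.7%, 16.3% and 14.1%. The groups of both were apart in those 2 sorts and overlapped in the CD8+ sort. In dendritic cell D18 replicate 2 the 3.23% of either gene is 1 read of 31. Counted over the 10, shares with groups apart numbered 1 higher and 2 lower with D18 in the CD8+ sort. They numbered 3 higher and 1 lower in the CD4+ sort, and 1 higher and 2 lower in the dendritic cell sort. Without the 2 libraries with low totals, these became 3 and 2 in the CD4+ sort and 2 and 3 in the dendritic cell sort. Of all genes tested, set against the same sum, 8.35% were higher and 4.84% lower without overlap in the CD8+ sort. The values were 1.66% and 12.9% in the CD4+ sort, and 16.8% and 8.13% in the dendritic cell sort. A common shift of the 10 cancels in their own shares but stays in the ratio of any other gene. The percentages are therefore unlike the counts over the 10 and show no excess or lack among them.

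**Figure D5:**
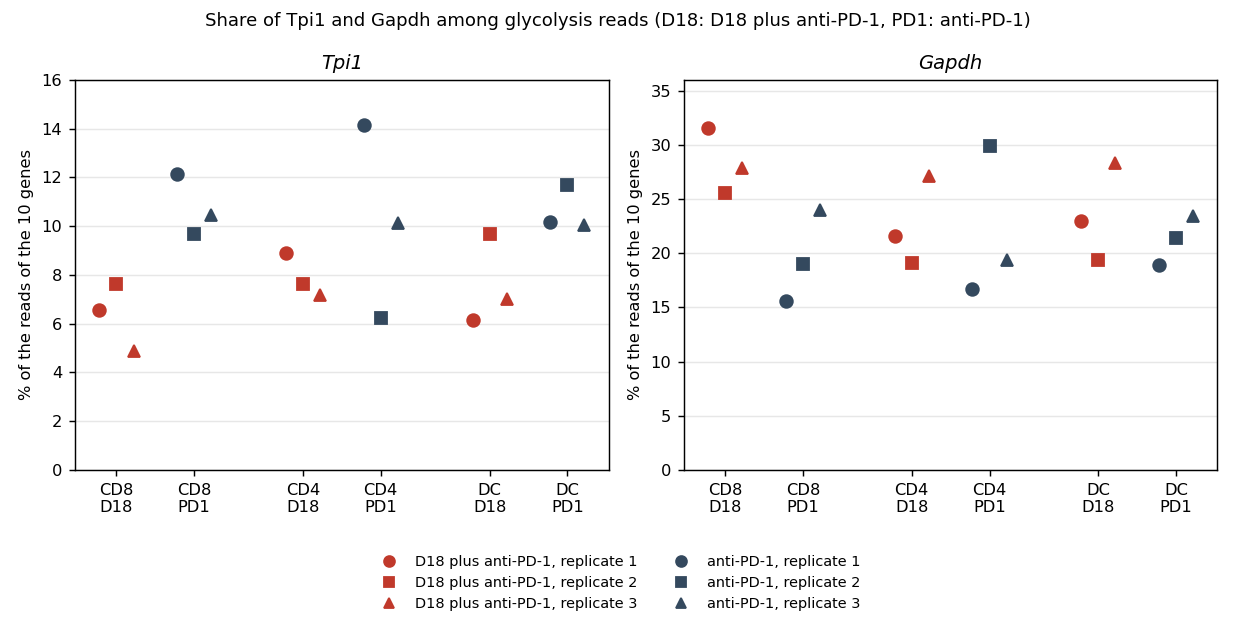
Share of Tpi1 (left) and Gapdh (right) among the reads of the 10 glycolysis genes (y axis, %), 1 symbol per library, with D18 plus anti-PD-1 left of anti-PD-1 in each sort. Tpi1 is lower in each D18 library than in each anti-PD-1 library except CD4+ anti-PD-1 replicate 2 (6.25%), when compared within a sort, and Gapdh is higher with D18 without overlap in the CD8+ sort only.

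Near-identical copies elsewhere in the genome can share reads with several of these genes, so their counts carry an uncertainty of mapping. Gapdh has 161 copies at 90% identity or more over at least 200 bases of a GENCODE transcript, mostly pseudogenes, and 82.5% of its 50-base words also occur in another gene. The figure was 72.2% for Eno1, 68.0% for Pgk1, 41.5% for Pgam1, 34.4% for Pkm, 25.3% for Gpi1, 17.1% for Ldha, 13.9% for Aldoa, 7.51% for Tpi1 and 1.74% for Slc2a1. The copies of Gapdh took 241 reads in all 18 libraries, against 6139 of Gapdh itself, and those of Eno1 took 127 against 4367. Copies held 0.23 to 3.65 reads per 100 reads of the 10 genes in 17 libraries and 22.6 in dendritic cell D18 replicate 2, which is 7 reads. Adding these reads to their gene gave no call. The estimate moved most for Gapdh in the dendritic cell sort, to -0.44, and for Gpi1 in the CD8+ sort, to -0.73. Pseudogenes of all kinds made up 0.23% to 0.51% of the nuclear total wherever mt-Co2 was absent, and those libraries all belong to the anti-PD-1 group. Every other library, of either treatment, had 0.71% to 3.82%, so this share followed the mt-Co2 split. Apart from the addition of copies, its part in the D18 differences was not tested.

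Other genes of the pathway were sparser. Of 23 other glycolytic isoenzymes and early steps, 2, 1 and 1 could be tested in the CD8+, CD4+ and dendritic cell sorts, and 0 were called. Pfkp, a platelet-type phosphofructokinase, differed by 0.34 ± 0.52, 1.77 ± 1.06 and -0.35 ± 0.93 in the 3 sorts. Pfkl, the liver-type subunit, had 0, 36 and 3 reads with D18 in the CD8+ sort, against 25, 30 and 16 with anti-PD-1 alone, for -2.32 ± 1.00 (limma p 0.046, adjusted p 0.599). In normalised reads that is 0, 12.3 and 5.05 with D18, against 33.7, 16.7 and 15.4, so the groups did not overlap. Hk2 and Hk3, hexokinases that trap glucose in the cell, had 0 to 22 and 0 to 17 reads per library and were not tested.

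Of 7 genes for glucose and lactate transport, 1, 2 and 1 were tested and 0 called. Bsg, the chaperone that brings monocarboxylate transporters to the membrane, differed by -0.35 ± 0.46 in the CD8+ sort, -0.38 ± 0.58 in the CD4+ sort and -0.86 ± 0.70 in the dendritic cell sort. Slc16a3 (MCT4), which exports lactate, differed by 0.80 ± 1.26 in the CD4+ sort and was too low to test elsewhere. Slc2a3 (GLUT3), a high-affinity glucose transporter, had 5, 64 and 2 reads with D18 in the CD8+ sort, against 0, 2 and 0 with anti-PD-1 alone, which is 9.35, 21.9 and 3.37 normalised reads with D18, against 0, 1.11 and 0. Each D18 library was above each anti-PD-1 library, but the mean was under the minimum, so the gene was not tested. The shares of all genes with groups apart cover tested genes only, so none can be set beside it. Slc2a8 had at most 10 reads in a library.

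In the pentose phosphate pathway, a branch from glucose phosphate that makes NADPH and ribose, 4, 2 and 3 of 7 genes were tested and 0 called. Tkt, transketolase, differed by -0.88 ± 0.38 in the CD8+ sort (limma p 0.046, adjusted p 0.599), 0.18 ± 0.48 in the CD4+ sort and -1.37 ± 1.38 in the dendritic cell sort. Taldo1, transaldolase, differed by 0.54 ± 0.65, -0.26 ± 0.60 and -1.33 ± 0.80 in the same order. Pgd differed by -1.40 ± 0.75 in the CD8+ sort and -0.76 ± 0.65 in the dendritic cell sort, and Pgls by 0.02 ± 0.46 in the CD8+ sort.

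For pyruvate entry and the citrate cycle, which oxidise pyruvate in mitochondria, 13, 5 and 4 of 23 genes were tested and 0 called. In the CD8+ sort 9 of the 13 were lower with D18, with a median of -0.38 against -0.03 over all genes. Mdh2 and Mdh1, the mitochondrial and cytosolic malate dehydrogenases, differed by -0.49 ± 0.48 and -0.20 ± 0.46 there, and in the CD4+ sort by -0.26 ± 0.63 and 1.43 ± 0.59 (limma adjusted p 0.910 and 0.453). Their differences in the dendritic cell sort were -2.48 ± 1.10 and -0.50 ± 0.64. Sdhb, a subunit of succinate dehydrogenase, differed by -0.53 ± 0.37, 0.25 ± 0.49 and -1.34 ± 1.21 across the 3 sorts, and Idh3b by 0.08 ± 0.39 in the CD8+ sort and -0.22 ± 0.71 in the dendritic cell sort.

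Among 22 regulators and other hypoxia-induced genes, 6, 4 and 4 were tested and 0 called. Bnip3, a hypoxia-induced gene of mitophagy, had 7, 44 and 5 reads with D18 in the CD8+ sort, against 23, 50 and 41 with anti-PD-1 alone, for -1.37 ± 0.39 (limma p 0.007, adjusted p 0.534). Bnip3 in the dendritic cell sort had 14, 0 and 21 reads with D18, against 16, 47 and 47, for -2.60 ± 1.02 (limma adjusted p 0.551). The 0 is from the shallowest library. In normalised reads every D18 library was below every anti-PD-1 library in both sorts, as for 7.65% (CD8+) and 19.9% (dendritic cell) of all genes tested. Hif1a, the oxygen-regulated subunit of HIF-1, differed by 1.53 ± 0.67 in the CD4+ sort (adjusted p 0.456) and 0.55 ± 0.46 in the CD8+ sort. Bnip3l differed by -0.03 ± 0.47, 0.58 ± 0.53 and -0.10 ± 0.89, and the cytokine gene Mif by 0.68 ± 0.72, 0.15 ± 0.78 and -0.03 ± 1.14, in the CD8+, CD4+ and dendritic cell sorts.

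Over the 18 libraries, with each gene centred within its sort, the 10 genes varied together. The median Pearson r of their 45 pairs was 0.69, against 0.25 over all pairs of the 727 genes that passed the filter in all 3 sorts. The 727 genes were not matched to the 10 for read level, so the medians are not of like genes. The part of level in the higher r was not tested. Gapdh and Eno1 were the closest pair (r = 0.96), and Slc2a1 and Gapdh the most distant (r = 0.04). The points share library depth, and without the 2 libraries farthest from the median, which are the 2 with low totals, the median was 0.39 and that over all pairs was 0.08. Pgk1 and Pgam1 were then the closest pair (r = 0.81) and Slc2a1 and Eno1 the most distant (r = -0.20).

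The genes whose pattern lay nearest to the mean of the 10 were Uqcrc1, a subunit of respiratory complex III, at r = 0.95, then Psmc3, a proteasome subunit, and the class I histocompatibility genes H2-Q6 and H2-D1 at 0.94 each, and Dbnl, an actin-binding adaptor, at 0.94. Without the same 2 libraries, over 16, these were 0.76, 0.67, 0.68, 0.82 and 0.63. Among the 10, Aldoa lay nearest to the mean at 0.96, which includes itself, and Slc2a1 farthest at 0.41.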

How the data were processed

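Libraries were made by Smart-Seq2, per the labels' protocols, a method without strand information or molecular identifiers. The submitters' processing notes name STAR 2.4.0, HTSeq 0.6.1, DESeq2 and mm10. The deposited tables hold log2 values that the authors made from normalised counts; the labels name no transform. Undoing a variance-stabilising transform gave whole reads (tolerance 0.001) for 100% of values, and these divided by the size factors that the deposited values imply, equal to median-ratio size factors, are the normalised reads. limma 3.58.1 (trend and robust, R 4.3.3) was fitted per sort on log2(normalised reads + 1), with Benjamini-Hochberg adjustment, without a block. The fit was also run on simulated counts with the same dispersion for every gene and no mixture of cell types or split between libraries. That run checks the code and does not show how large a change these libraries could detect. Figures used matplotlib 3.10.9 and copies were found with blastn 2.17.0. A count of 0 allows up to 3 reads.

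The 10 genes and all lists were chosen with earlier results of these data known. The rule names all 10 genes, up to 4 most abundant genes per list plus any called, and the 5 genes nearest in pattern; other members of lists were not named. Libraries of the same number deviated together in the CD8+ sort (correlations 0.36, 0.51 and 0.56, with 3 of 3 best with their own number), so the numbers were taken to pair them there, and not in the CD4+ sort (-0.14, 0.15 and -0.20) or the dendritic cell sort (0.03, -0.09 and 0.14). Alternatives were other normalisations, limma-voom, other filters and pseudocounts, the deposited values, the block, a term for the libraries without mt-Co2 reads and omission of libraries; the addition of reads of copies was chosen after seeing the data.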

Additional observations from a re-analysis of the deposited data

How the results depend on the processing

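None of the 10 genes passed the threshold under any alternative, in 176 fits of single genes in the CD8+ sort, 185 in the CD4+ sort and 175 in the dendritic cell sort, and none of the interactions did. In 23, 11 and 11 of these the sign of the log2 difference turned. Those that never turned were Gpi1, Ldha, Pkm and Tpi1 in the CD8+ sort, Aldoa, Eno1, Gapdh, Pgam1 and Pgk1 in the CD4+ sort, and Aldoa, Gpi1, Ldha, Pkm, Slc2a1 and Tpi1 in the dendritic cell sort.

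The count of all genes called in the CD8+ sort, 0, was 22 with no filter, 1 on the deposited values, 20 with the replicate block, and 0 to 2 with 1 library left out. In the CD4+ sort it was 29 with no filter, 34 without both libraries numbered 3, and 0 to 19 with 1 library left out (19 without anti-PD-1 replicate 3). In the dendritic cell sort it was 1 with quantile normalisation. The block changed no call of the 10 genes. The cause of each shift was not tested. Quantile normalisation moved the median of all genes in the dendritic cell sort to -0.07, voom to -0.18, and the lack of a filter to 0.19.

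In the CD8+ sort quantile normalisation gave 0.039 for Slc2a1, 0.059 for Aldoa and 0.030 for Eno1, and voom 0.14 for Slc2a1. The term for libraries without mt-Co2 reads gave 0.19 for Slc2a1, 0.13 for Aldoa, -0.13 for Gapdh and -0.44 for Pgam1. Without both libraries numbered 3, Aldoa was 0.042, Pgk1 0.13 and Eno1 0.10. With 1 library left out, Slc2a1 ranged from -0.38 to 0.30, Aldoa from -0.34 to 0.15, Gapdh from -0.027 to 0.54, Pgk1 from -0.54 to 0.091, Pgam1 from -0.56 to 0.55 and Eno1 from -0.38 to 0.033.

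In the CD4+ sort voom gave -0.11 for Slc2a1. The mt-Co2 term and omission of anti-PD-1 replicates 1 and 2 give the same estimates by construction. These were -0.34 for Tpi1, -0.25 for Pkm and -0.27 for Ldha. With 1 library left out, Gpi1 ranged from -0.056 to 0.60, Tpi1 from -0.51 to 0.92, Pkm from -0.19 to 1.55 and Ldha from -0.26 to 0.43. In the dendritic cell sort quantile normalisation gave 0.23 for Pgk1 and 0.52 for Pgam1, voom 0.54 and 0.57, and omission of both libraries numbered 3 gave 0.0024 for Pgam1. With 1 library left out, Gapdh ranged from -1.50 to 0.14, Pgk1 from -0.76 to 0.59, Pgam1 from -0.80 to 0.53 and Eno1 from -1.64 to 0.44. An omission of anti-PD-1 replicates 1 and 2 leaves 1 library, assumed to vary like the D18 group, and the mt-Co2 term sets D18 against that same library.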
